A study of Mus musculus with 2 samples.

Results

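Interferon-stimulated genes are described here in mouse bone marrow-derived macrophages (BMDMs), macrophages grown in culture from marrow progenitors, with and without deoxycholic acid. Members were chosen by name for their known place in the interferon response, with earlier results of these data known. Shares counted over them are therefore descriptions and no independent check. The members are 40 genes in 11 role groups, of which 38 had a row among the 15576 genes of the deposited RNA sequencing table. Mx1 and Mx2 are not analysed here. The DCA library came from wild-type BMDMs kept for 24 h with 100 µM deoxycholic acid (DCA), which gut bacteria make from a primary bile acid, and the NC library from wild-type BMDMs without it. There was 1 library per group, so no difference below has a replicate check or a p-value, and the sources used here give no vehicle, strain or age of the mice. The labels do not settle whether cells were taken at the end of the 24 h or a day later.

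Interferons are secreted proteins that signal to the cell that makes them and to its neighbours. Type I interferon binds a receptor made of IFNAR1 and IFNAR2, whose kinases TYK2 and JAK1 phosphorylate STAT2 among other proteins. STAT2 and IRF9 are parts of a complex that binds the interferon-stimulated response element (ISRE) near the start of its target genes. Type II interferon, IFN-gamma, signals through another receptor, and its targets often carry the GAS element. Resting macrophages keep a low, tonic level of this programme.

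The starts of the genes are shown first, because most members with a known window share the ISRE letters there. RefSeq windows on GRCm38.p6, from 250 bases before to 50 bases after a gene start, were matched for 32 of the 40 members, Rigi under its older symbol Ddx58. The ISRE core was searched as GAAA, any 2 bases and GAAA, and the GAS element as TTCNNNGAA, each on both strands. The ISRE core was found in 22 of the 32 members (68.8%), against 3.99% of all 27025 genes with a window. The GAS letters were found in 8 of 32 members (25%), against 9.55% of all genes, and 6 members held both. A GAS match overlapped an ISRE core in Bst2 and in Ifitm3. These matches describe letters in a window and are not mapped binding sites. The 200 bases before the start are printed for the copies Ifit3 and Ifit3b, which share their upstream sequence, and for Isg15, which holds 3 cores. Gbp2, Gbp7, Igtp and Ifitm2 are printed because they hold a core there and were at least 1.1-fold higher in DCA. Rigi was also that much higher, but its core lies after the start. Summed with the overlapping or neighbouring genes named below, Ifitm2 and Igtp had ratios of DCA over NC of 0.977 and 1.02. Each runs 5′ to 3′ along the gene, and capitals mark ISRE cores, which read as TTTC, any 2 bases and TTTC where they lie on the other strand.
Ifit3, chr19:34583329-34583528, plus strand: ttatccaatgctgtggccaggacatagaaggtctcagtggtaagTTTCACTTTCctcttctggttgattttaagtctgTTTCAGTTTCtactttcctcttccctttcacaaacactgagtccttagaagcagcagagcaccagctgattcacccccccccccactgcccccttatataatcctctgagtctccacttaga
Ifit3b, chr19:34607757-34607956, plus strand: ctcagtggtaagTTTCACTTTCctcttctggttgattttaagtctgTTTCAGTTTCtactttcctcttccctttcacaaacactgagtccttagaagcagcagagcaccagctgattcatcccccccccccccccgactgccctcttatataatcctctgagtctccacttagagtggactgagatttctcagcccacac
Isg15, chr4:156200819-156201018, minus strand: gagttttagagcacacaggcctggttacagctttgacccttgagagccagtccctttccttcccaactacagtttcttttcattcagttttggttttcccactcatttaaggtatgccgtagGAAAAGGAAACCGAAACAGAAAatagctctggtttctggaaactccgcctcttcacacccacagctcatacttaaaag
Gbp2, chr3:142620463-142620662, plus strand: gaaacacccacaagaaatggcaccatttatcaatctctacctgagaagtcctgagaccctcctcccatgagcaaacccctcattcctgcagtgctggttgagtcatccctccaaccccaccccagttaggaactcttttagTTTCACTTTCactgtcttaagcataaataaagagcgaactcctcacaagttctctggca
Gbp7, chr3:142530136-142530335, plus strand: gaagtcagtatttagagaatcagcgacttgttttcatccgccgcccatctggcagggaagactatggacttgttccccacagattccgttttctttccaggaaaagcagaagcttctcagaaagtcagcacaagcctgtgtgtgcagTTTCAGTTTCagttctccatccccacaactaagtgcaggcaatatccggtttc
Igtp, chr11:58199356-58199555, plus strand: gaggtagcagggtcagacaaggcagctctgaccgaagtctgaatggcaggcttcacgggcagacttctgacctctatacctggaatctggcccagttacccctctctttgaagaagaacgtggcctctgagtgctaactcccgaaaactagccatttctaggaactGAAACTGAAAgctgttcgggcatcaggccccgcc
Ifitm2, chr7:140955962-140956161, minus strand: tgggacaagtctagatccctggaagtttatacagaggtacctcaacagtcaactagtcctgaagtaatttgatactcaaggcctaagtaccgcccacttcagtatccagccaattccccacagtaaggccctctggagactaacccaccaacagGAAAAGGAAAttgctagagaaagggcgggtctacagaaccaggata

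The upstream windows of Ifit3 and Ifit3b held the same pair of cores, 32 bases farther from the start in Ifit3b. Their longest identical stretch was 169 bases. Of the members, 10 held 2 or more cores in a window, among them Ifit1, Ifit3, Ifit3b, Oas1a, Gbp3, Irgm1, Isg15 and Bst2, and in Isg15 they began at -78, -72 and -66 from the start. With a core of 10 bases, those of Isg15 overlapped, as did those of Oas1a, Gbp3, Irgm1 and Bst2, which began 6 bases apart. The first base of a core lay between 222 bases before and 33 bases after the start. The differences of members with and without the core overlapped widely. On the scale defined below, the 21 counted members with a core had a median of 0.11, from 0.00 (-0.0046) to 0.69, and the 8 without one had a median of 0.08, from -0.04 to 0.15.

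Values are FPKM as deposited, that is reads scaled by gene length and by the read total of the library. The reads behind them could be rebuilt, because low FPKM values are whole multiples of what 1 read is worth. Ratios are DCA over NC of these reads, scaled to the read totals of 56.6 M in DCA and 59.2 M in NC, with an exact Clopper-Pearson 95% interval that covers counting error only. A difference is log2(FPKM + 1) in DCA less that in NC, a scale that makes the differences of low genes smaller. Counts cover genes whose FPKM averaged 1 or more over both libraries, 9656 in all and 34 of the members.

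Most interferon-stimulated genes were slightly higher in the DCA library. Of the 34 counted members 31 were higher (91.2%), against 53.5% of all counted genes, and 3 were lower, against 46.5%. The median difference was 0.09 (interquartile range 0.06 to 0.13), against 0.0067 over all genes. At least 1.1-fold higher on the FPKM + 1 scale were 8 members (23.5%), against 8.99% of all genes, and none was 1.1-fold lower, against 4.79%. At least 1.5-fold higher was 1 member, Ifit3b, against 0.342% of all genes, and none was 1.5-fold lower, against 0.155%. Ifit3b, at 0.583 FPKM in NC, entered the counts only through DCA, where it was high, so no weight can rest on this count. Of the 33 counted members with rebuilt reads, the interval lay above 1 for 19 (57.6%), against 25.6% of all genes, held 1 for 14, and lay below 1 for none, against 20.0%. Log ratios of all genes spread with a robust SD of 2.64 counting errors, so the intervals are narrower than the distance between these libraries.

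**Figure D1:**
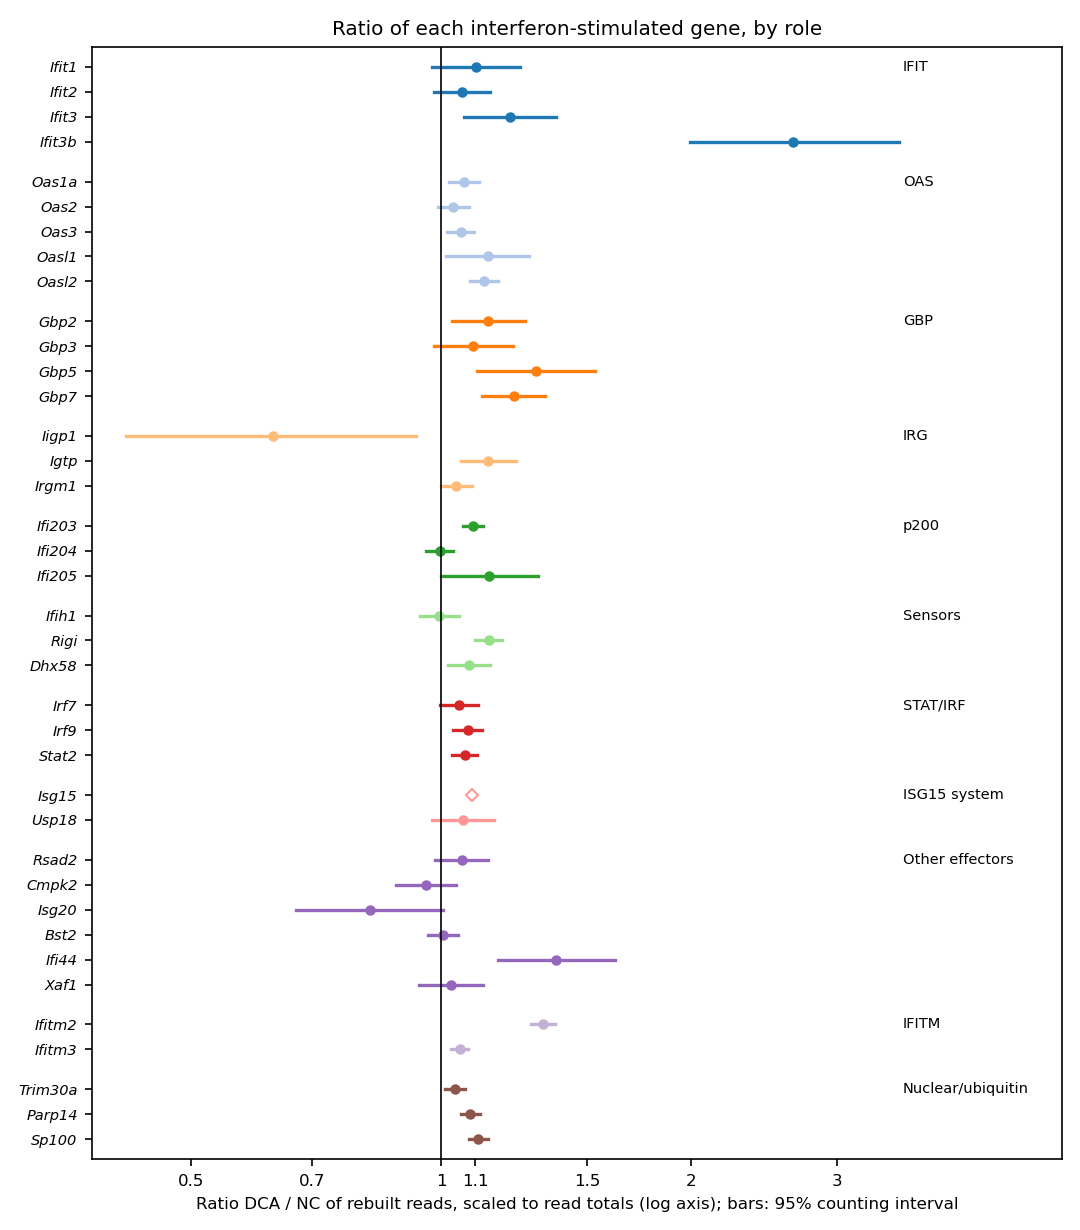
Ratio DCA over NC for each of the 38 interferon-stimulated genes on a log axis, grouped and coloured by role, with bars for the 95% counting interval. The open diamond is the FPKM ratio of Isg15, whose reads could not be rebuilt. Most ratios lie a little to the right of 1, with Ifit3b at 2.65 far to the right and Iigp1 at 0.628 to the left.

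The 3 transcription factor genes of the STAT/IRF group were higher by a few percent. Stat2, a subunit of the ISRE-binding complex (plus strand of GRCm38 chromosome 10, 128270559 to 128292849), had 7.90 FPKM in DCA and 7.39 in NC (ratio 1.07, interval 1.03 to 1.11). Irf9, the DNA-binding subunit of that complex, had 6.38 FPKM in DCA and 5.92 in NC (ratio 1.08, interval 1.04 to 1.12). Irf7, the factor that amplifies type I interferon production, had 2.84 FPKM in DCA and 2.70 in NC (ratio 1.05, interval 0.997 to 1.11). All 3 were higher in DCA, and the interval of Irf7 holds equality.

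Of the cytosolic RNA sensors, Rigi stood highest. Rigi, which encodes RIG-I (minus strand of chromosome 4, 40203773 to 40239828), had 6.22 FPKM in DCA and 5.45 in NC, or 5685 reads in DCA and 5213 in NC (ratio 1.14, interval 1.099 to 1.19). Dhx58, which encodes the related LGP2, had 6.88 FPKM in DCA and 6.37 in NC (ratio 1.08, interval 1.02 to 1.15). Ifih1, which encodes MDA5, had 3.07 FPKM in DCA and 3.09 in NC (ratio 0.996, interval 0.943 to 1.05). Rigi and Dhx58 were higher in DCA, and Ifih1 was at nearly the same level in both libraries.

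The IFIT proteins bind viral RNA, and their genes lie side by side on chromosome 19. Ifit3 (plus strand, 34583531 to 34588731) had 5.36 FPKM in DCA and 4.42 in NC, or 529 reads in DCA and 457 in NC (ratio 1.21, interval 1.07 to 1.38). Ifit3b (plus strand, 34607970 to 34613401) had 1.55 FPKM in DCA and 0.583 in NC, or 175 reads in DCA and 69 in NC (ratio 2.65, interval 1.998 to 3.56). It passed the limit of 1 FPKM only through DCA, and its difference of 0.69 was rank 28 from the top of the 9656 genes. Ifit1 had 3.58 FPKM in DCA and 3.25 in NC (ratio 1.102, interval 0.974 to 1.25), and Ifit2 had 5.13 in DCA and 4.85 in NC (ratio 1.06, interval 0.980 to 1.14), so equality lies within both intervals.

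Ifit3 and Ifit3b cannot be fully told apart by their reads. Of all stretches of 50 bases in the transcripts of Ifit3, 51.2% also occur in Ifit3b, and 44.5% of those of Ifit3b occur in Ifit3. Summed over both genes there were 704 reads in DCA and 526 in NC (ratio 1.40, interval 1.25 to 1.57). The sum was therefore still higher in DCA, while its division between the copies is uncertain.

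**Figure D2:**
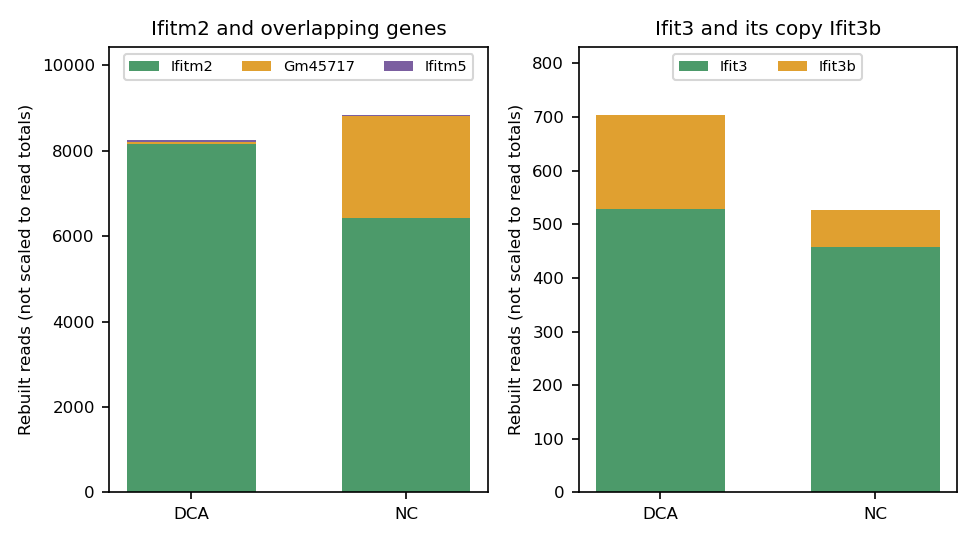
Rebuilt reads, not scaled to the read totals, DCA beside NC. The left panel stacks Ifitm2, Gm45717, which shares exonic bases with Ifitm2, and Ifitm5, which overlaps Gm45717. The right panel stacks Ifit3 and its copy Ifit3b. The stack of Ifitm2 is 8255 reads in DCA and 8839 in NC, and that of Ifit3 is 704 reads in DCA and 526 in NC.

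The IFITM proteins block entry of enveloped viruses at endosomal membranes. Ifitm2 (minus strand of chromosome 7, 140954837 to 140955987) had 220.1 FPKM in DCA and 165.9 in NC, or 8157 reads in DCA and 6434 in NC (ratio 1.33, interval 1.28 to 1.37), rank 60 from the top of all counted genes. Of its 655 exonic bases, 268 (40.9%) also belong to Gm45717, annotated on the same strand. Gm45717 held 59 reads in DCA but 2390 in NC. With Gm45717 and the neighbouring Ifitm5, which overlaps Gm45717, the reads came to 8255 in DCA and 8839 in NC (ratio 0.977, interval 0.948 to 1.01). The higher value of Ifitm2 was thus not present in the sum over the genes that share its exons. Ifitm3, which overlaps no annotated gene, had 361.9 FPKM in DCA and 343.4 in NC (ratio 1.05, interval 1.03 to 1.08).

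The oligoadenylate synthetase group was higher in 5 of 5 genes by small amounts, against 53.5% of all genes, with a median difference of 0.09. These enzymes sense double-stranded RNA and make the messenger that activates RNase L, while OASL1 and OASL2 are relatives with an added ubiquitin-like tail. Oasl2 (plus strand of chromosome 5, 114896936 to 114912234) had 7.72 FPKM in DCA and 6.85 in NC, or 5223 reads in DCA and 4847 in NC (ratio 1.128, interval 1.08 to 1.17). Oasl1 had 1.58 FPKM in DCA and 1.39 in NC (ratio 1.14, interval 1.02 to 1.28). Oas1a had 43.2 FPKM in DCA and 40.5 in NC (ratio 1.07, interval 1.02 to 1.11). It shares 57.6% of its stretches of 50 bases with Oas1g, which had a ratio of 1.09 (1.02 to 1.16), so its own reads are uncertain while both genes lay on the same side. Oas2 and Oas3 had ratios of 1.04 (0.992 to 1.08) and 1.06 (1.02 to 1.097), and all 5 point estimates lay between 1.04 and 1.14.

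Guanylate-binding proteins (GBP) are large GTPases that attack the vacuoles and membranes of intracellular pathogens, and their genes are strong targets of IFN-gamma. Of the GBP group 3 of 3 counted genes were higher, against 53.5% of all genes, with a median difference of 0.15. Gbp7 (plus strand of chromosome 3, 142530342 to 142550149) had 2.43 FPKM in DCA and 1.99 in NC, or 1116 reads in DCA and 955 in NC (ratio 1.22, interval 1.12 to 1.33), although 11.3% of its exonic bases are shared with Gm43802. Gbp2 had 4.22 FPKM in DCA and 3.70 in NC (ratio 1.14, interval 1.03 to 1.26), and Gbp3 had 1.14 in DCA and 1.04 in NC (ratio 1.09, interval 0.982 to 1.22). Gbp5, a promoter of inflammasome assembly that lay below the limit, had 0.387 FPKM in DCA and 0.297 in NC, or 338 reads in DCA and 272 in NC (ratio 1.30, interval 1.11 to 1.53). The GBP genes therefore pointed 1 way, with Gbp5 the highest of the 4 by ratio.

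The immunity-related GTPases (IRG), which act on the vacuoles of intracellular parasites, had ratios on both sides of 1. Igtp, also known as Irgm3 (plus strand of chromosome 11, 58199556 to 58207591), had 4.43 FPKM in DCA and 3.89 in NC (ratio 1.14, interval 1.06 to 1.23). Its exons share 162 bases with those of Irgm2, which had 3.61 FPKM in DCA and 3.80 in NC (ratio 0.951, interval 0.897 to 1.01), and over both genes the ratio was 1.02 (0.972 to 1.07). Irgm1, a regulator of the other IRG proteins, had 8.77 FPKM in DCA and 8.40 in NC (ratio 1.04, interval 0.999 to 1.09). Iigp1, an effector GTPase below the limit, had 42 reads in DCA and 70 in NC (ratio 0.628, interval 0.418 to 0.934). It was the only 1 of the 37 members with rebuilt reads whose interval lay below 1.

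The p200 proteins are nuclear and cytosolic DNA-binding proteins whose genes lie in a cluster on chromosome 1. Ifi203 had 8.16 FPKM in DCA and 7.47 in NC (ratio 1.09, interval 1.06 to 1.12), and Ifi205 had 1.66 in DCA and 1.46 in NC (ratio 1.14, interval 0.9997 to 1.31). Ifi204, which encodes a DNA sensor, had 24.4 in DCA and 24.5 in NC (ratio 0.996, interval 0.960 to 1.03). The interval lay above 1 for Ifi203 and held 1 for Ifi204 and Ifi205. The cluster holds close copies: 20.02% of the stretches of Ifi204, 18.6% of those of Ifi205 and 12.4% of those of Ifi203 occur in another gene.

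In the ISG15 system, the ubiquitin-like modifier and its protease were higher by a few percent. Isg15 (minus strand of chromosome 4, 156199424 to 156200818), whose product is joined to proteins after interferon, had 12.6 FPKM in DCA and 11.5 in NC, an FPKM ratio of 1.09. Its reads could not be rebuilt, so it has no counting interval. Usp18, which removes ISG15 and dampens signalling at the type I receptor, had 5.28 FPKM in DCA and 4.97 in NC (ratio 1.06, interval 0.975 to 1.16).

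The remaining antiviral effectors stood closest to equality, with a median difference of 0.02 over 4 counted genes, and no interval of these 4 excluded 1. Rsad2, which encodes viperin, had 3.10 FPKM in DCA and 2.93 in NC (ratio 1.06, interval 0.985 to 1.14). Its neighbour Cmpk2, a nucleotide kinase gene, had 2.62 FPKM in DCA and 2.73 in NC (ratio 0.959, interval 0.882 to 1.04). Bst2, which encodes tetherin, had 68.4 FPKM in DCA and 68.0 in NC (ratio 1.01, interval 0.966 to 1.05), and Xaf1 had a ratio of 1.03 (0.941 to 1.12). Below the limit, Ifi44 had 0.784 FPKM in DCA and 0.570 in NC, or 351 reads in DCA and 267 in NC (ratio 1.38, interval 1.17 to 1.62), and the RNA exonuclease gene Isg20 had 174 reads in DCA and 222 in NC (ratio 0.820, interval 0.669 to 1.005). Ratios of these effectors lay on both sides of 1.

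Among the nuclear and ubiquitin-related genes, the interval lay above 1 for 3 of 3, against 25.6% of all genes, and these genes have many reads and so narrow intervals. Sp100, a component of PML nuclear bodies, had 10.9 FPKM in DCA and 9.80 in NC, or 11575 reads in DCA and 10923 in NC (ratio 1.11, interval 1.08 to 1.14). Parp14, an ADP-ribosyltransferase, had 16.8 FPKM in DCA and 15.5 in NC (ratio 1.08, interval 1.06 to 1.11). Trim30a, a tripartite motif protein that limits Toll-like receptor signalling, had 40.8 FPKM in DCA and 39.2 in NC (ratio 1.04, interval 1.01 to 1.07). 

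**Figure D3:**
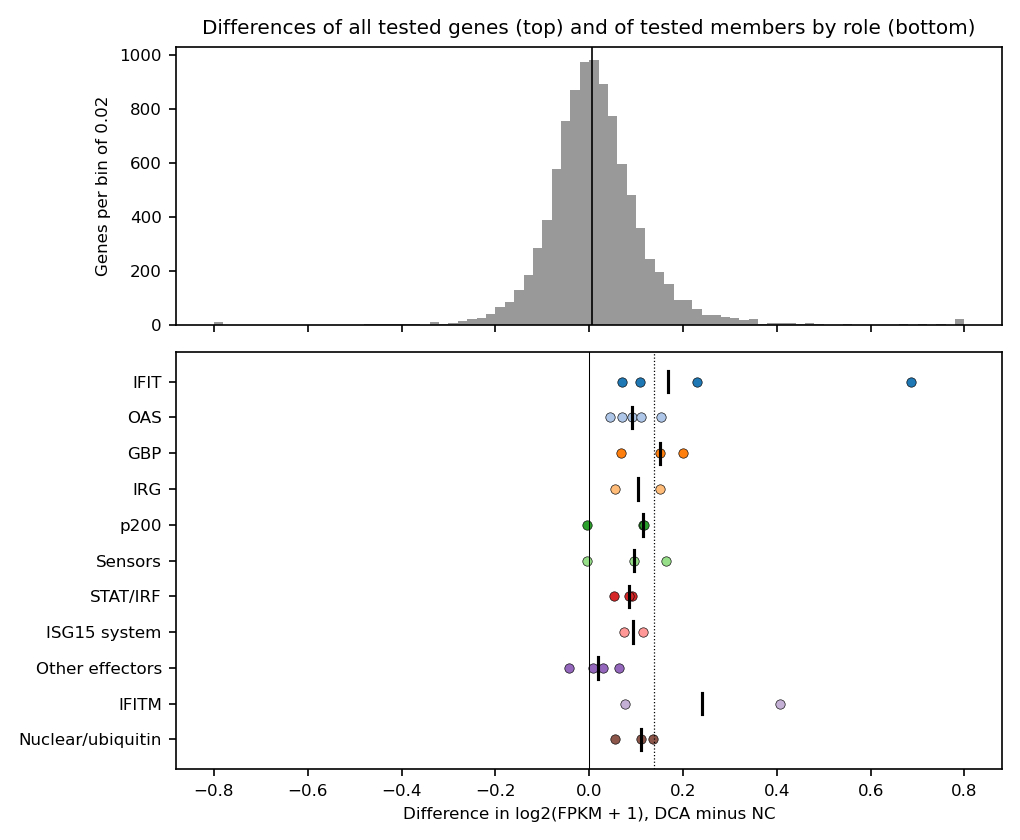
Histogram of log2(FPKM + 1) in DCA less that in NC, for the 9656 counted genes (top, values beyond 0.8 either way drawn in the end bins, vertical line at the median) and the 34 counted members by role (bottom, points for genes, thick ticks for group medians, dotted line at 1.1-fold). Group medians run from 0.02 for the other effectors to 0.24 for IFITM, against 0.0067 for all genes.

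Set side by side, the group medians were 0.24 for IFITM, 0.17 for IFIT, 0.15 for GBP, 0.11 for p200 and 0.11 for the nuclear and ubiquitin-related genes. They were 0.10 for IRG, 0.10 for the sensors, 0.09 for the ISG15 system, 0.09 for OAS, 0.08 for STAT/IRF and 0.02 for the other effectors. Each rests on 2 to 5 genes, and the values of most groups overlap. The highest rest on uncertain genes, since without Ifitm2 and Ifit3b, left out after their values were seen, the medians were 0.08 for IFITM, from Ifitm3 alone, and 0.11 for IFIT. Without genes with overlapping exons the GBP median was 0.07 and the IRG median 0.06, each from 1 gene. Without Ifitm2 and Ifit3b the median of the 32 other counted members was 0.09.

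Levels of different genes can be compared more closely once reads are divided by merged exon length, which the deposited FPKM were not. Reads from shared exons or sequence stay uncertain even then, as for Ifitm2 and Oas1a. On this scale, in reads scaled by merged exon length and read total, Ifitm3 was highest at 361.9 in DCA and 343.4 in NC, followed by Ifitm2 and by Bst2 at 91.1 in DCA and 90.6 in NC. Trim30a and Oas1a followed, at 45.8 and 43.2 in DCA and at 44.1 and 40.5 in NC. Stat2 was at 19.0 in DCA and 17.8 in NC, and Rsad2 at 6.01 in DCA and 5.67 in NC. At the low end were Ifi44 at 1.01 in DCA and 0.736 in NC, Gbp5 at 0.900 in DCA and 0.692 in NC, and Iigp1 at 0.128 in DCA and 0.203 in NC. The order thus ran from virus entry inhibitors to a GTPase of parasite vacuoles, and with 1 library per group no spread is known against which neighbours in this order could be set.

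**Figure D4:**
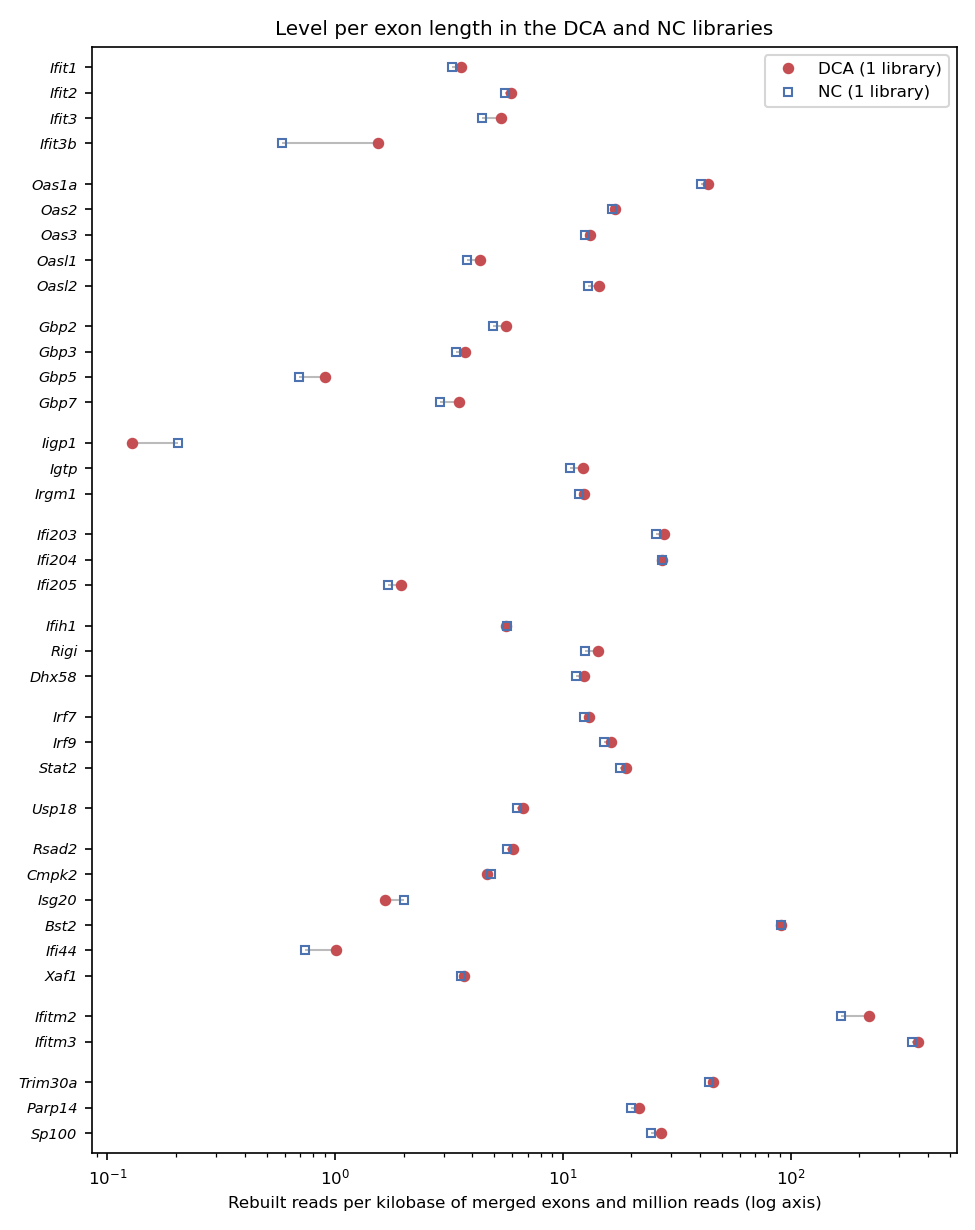
Level of 37 members in rebuilt reads scaled by merged exon length and read total on a log axis, 1 row per gene, filled circles for DCA and open squares for NC, 1 library each. Levels run from 0.128 in DCA for Iigp1 to 361.9 in DCA for Ifitm3, and for most genes the symbols of the libraries nearly touch.

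Beyond the members, genes of the pathway were read from lists, also chosen with earlier results of these data known. Of 93 further interferon-stimulated genes 87 had a row and 76 were counted. Of these 60 were higher in DCA (78.9%, against 53.5% of all counted genes) and 16 lower. Of the same genes 20 lay 1.1-fold or more above NC (26.3%, against 8.99% of all) and 1 as far below (1.32%, against 4.79% of all), with a median difference of 0.07. Trex1, which encodes a cytosolic DNA exonuclease, had 5.61 FPKM in DCA and 3.17 in NC (ratio 1.77, interval 1.56 to 2.01). Its exons share 1147 bases with Atrip, and over both genes the ratio was 1.02 (0.969 to 1.08). Ifi206 and Phf11b had ratios of 1.42 (1.24 to 1.63) and 1.28 (1.15 to 1.43), and Ifitm6, a relative of the IFITM genes, had 27.9 FPKM in DCA and 22.7 in NC (ratio 1.23, interval 1.17 to 1.29). On the other side, Ifi27 had 6.78 FPKM in DCA and 7.83 in NC (ratio 0.866, interval 0.821 to 0.913). The share of these genes higher in DCA was above that of all genes, and below the 91.2% of the members.

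Of the ligand genes, 3 had a row. Ifng was at only 4 reads in DCA and 14 in NC (ratio 0.299, interval 0.0717 to 0.952), an interval below 1. Ifnk had none in either library. Il27, a cytokine gene, had 76 reads in DCA and 64 in NC (ratio 1.24, interval 0.879 to 1.76), and the interval includes equality. The other ligand genes of the list are not analysed here. The receptors and kinases showed no common direction, with 3 of 7 higher, against 53.5% of all genes, and a median difference of -0.02. Ifnar1 and Ifnar2 had ratios of 0.984 (0.961 to 1.01) and 0.987 (0.959 to 1.02), Tyk2 and Ifngr2 had 0.957 (0.925 to 0.989) and 0.963 (0.935 to 0.993), Jak1 and Jak2 had 1.01 (0.989 to 1.03) and 1.01 (0.978 to 1.05), and Ifngr1 had 1.08 (1.05 to 1.102).

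Of 20 counted genes of upstream sensing and regulation 14 were higher (70%, against 53.5% of all genes), with a median difference of 0.04. Those 1.1-fold or more apart, 2 above NC and 1 below, were shares near the background of 8.99% and 4.79%. Irf1, a transcription factor gene, had 6.48 FPKM in DCA and 5.87 in NC. Tlr9, the endosomal DNA receptor, had 16.8 FPKM in DCA and 13.4 in NC (ratio 1.25, interval 1.19 to 1.31), and Ticam1, the adaptor of TLR3, had 12.6 in DCA and 11.1 in NC (ratio 1.14, interval 1.07 to 1.21). Sting1 had a ratio of 1.11 (1.06 to 1.16) and Cgas 1.06 (0.996 to 1.12). Socs3, a feedback inhibitor, had 3.34 FPKM in DCA and 3.82 in NC (ratio 0.875, interval 0.785 to 0.975). The transcription factor genes Irf8, Irf2, Irf3 and Irf5 had ratios of 1.08 (1.06 to 1.105), 1.05 (1.01 to 1.095), 1.02 (0.972 to 1.07) and 0.966 (0.940 to 0.993).

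Most markers of other cells were also higher in DCA. They were counted without the limit of 1 FPKM, and without it 51.3% of all 15576 genes were higher. Markers of plasmacytoid dendritic cells, which carry high levels of Irf7 and Bst2, were higher in DCA in 7 of 7 genes. Their summed level was 127.8 FPKM in DCA and 101.4 in NC, of which Ly6d alone made up 98.4 and 80.3. Ratios of those with rebuilt reads ran from 1.04 for Tcf4 to 1.77 for Cox6a2, and Runx2 had 2.66 FPKM in DCA and 2.54 in NC. B cell markers were higher in 8 of 8, at 182.6 FPKM in DCA and 146.8 in NC, and neutrophil markers in 10 of 10, at 4007 in DCA and 3365 in NC. Of the conventional dendritic cell markers 6 of 8 were higher, at 30.7 in DCA and 23.5 in NC, eosinophil markers in 5 of 5, at 105.7 in DCA and 72.2 in NC, and mast cell and basophil markers in 5 of 6, at 20.7 in DCA and 18.8 in NC. T and NK cell markers were higher in 5 of 6, at 2.83 FPKM in DCA and 2.05 in NC, of which Nkg7 made up 1.95 and 1.59. The CD3 genes had few reads and differed in direction. Cd3d and Cd3g had 14 and 17 reads in DCA and 0 in NC, and Cd3e had 7 in DCA and 16 in NC. Macrophage markers, which were all present, were lower in 9 of 10, against 46.5% of all counted genes, at 957.6 in DCA and 998.4 in NC. More cells of a type and more RNA per cell cannot be told apart in such libraries, and the part of these cells in the differences of the interferon-stimulated genes was not tested.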

How the data were processed

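RNA was sequenced from 1 DCA and 1 NC culture of mouse BMDMs. The authors deposited FPKM values for 15576 genes. The submitters' processing notes list HTSeq 0.6.0, DESeq2 3.0, STAR 2.5.0c, bedtools 2.17.0 and Picard 1.126 without roles, and name GRCm38. The sources used here state no strand setting, read length or filter.

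GENCODE vM21 holds 15548 of the identifiers and supplied coordinates, lengths and exon overlaps, counted whatever the strand. Reads were rebuilt with gene length taken as the sum over all its transcripts. The read total that made most values whole was 56.6 M in the DCA library against 59.2 M in the NC library. Of 12491 genes under 5000 reads 12068 (96.6%) came out whole in both libraries within 0.05 of a read. The FPKM of a gene with many transcripts is therefore too low, and FPKM does not rank genes by abundance. Intervals cover counting error only, since PCR copies are not independent molecules.

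The difference was taken on log2(FPKM + 1) over genes whose FPKM averaged 1 or more. With 1 library per group no test was made, and counts were read beside the share of all genes. The members and lists were chosen with earlier results of these data known. All members are named. Of the further genes, those at least 1.1-fold apart are named, at most 4 per direction. Other names, and the summing of reads over overlapping genes other than Ifit3 and Ifit3b, were chosen after the values were seen. Pseudocount, filter, scaling, read ratios and overlapping genes were varied. The rebuilding of reads and the intervals were tested on simulated data. Python 3.11.15, pandas 2.3.3 and scipy 1.17.1 were used. Of the regulator list, 1 gene is not reported here by name.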

Additional observations from a re-analysis of the deposited data

How the results depend on the processing

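No paired analysis was possible because each group has 1 library, and for the same reason no replicate could be left out. The median difference of the members stayed above 0 in all 11 alternatives, between 0.0571 (pseudocount 5) and 0.1075 (pseudocount 0.1). With pseudocount 5, 2 of 34 members were at least 1.1-fold higher, against 2.90% of all genes, and 0 at least 1.5-fold. The p200 median was then 0.0459. With a mean FPKM of at least 5, 18 of 19 members were higher, against 53.8% of all genes. At least 1.1-fold higher were 3, against 6.99% of all genes, and 0 at least 1.5-fold. The p200 median was 0.0543, and fewer genes were counted there. Without genes with overlapping exons, 19 of 22 members were higher, against 53.8% of all genes, and 4 at least 1.1-fold, against 9.42%. Medians there were 0.0562 for p200, 0.0677 for GBP (against 0.1510) and 0.0553 for IRG (against 0.1036). They were 0.0756 for IFITM and 0.0553 for the nuclear and ubiquitin-related genes. Without Ifit3b and Ifitm2, chosen after seeing the data, 0 members were at least 1.5-fold higher and the IFITM median was 0.0756. With each library rescaled to the same sum, 30 of 34 members were higher, against 47.8% of all genes, and the difference of Bst2 was -0.0053, against 0.0079. Summed with Gm45717 and Ifitm5, also chosen after seeing the data, the log2 ratio of Ifitm2 was -0.0329. Bst2 and Ifitm2 were the members whose sign turned under these alternatives.

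In genes with few reads, differences such as 10.2% in Ifit1, 9.4% in Gbp3 and 2.9% in Xaf1 lay within counting error at this depth. The cause of the changes under other settings was not tested where not stated.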
